A study of Mus musculus with 2 samples.

Results

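Cycling cells, the cells of a tissue that are copying their DNA or dividing, were examined in single-cell RNA-seq data from the mouse dorsal meninges, the membranes that cover the brain. A cell was counted as cycling when at least 2 of 6 genes of the G2 and mitotic program (Mki67, Top2a, Ccna2, Birc5, Cdk1 and Ube2c) had a UMI, that is, a counted RNA molecule. This rule kept 105 of 5816 cells, 43 of the 2043 Sham cells and 62 of the 3773 cells taken after traumatic brain injury (TBI). All cells had 150 to 5000 detected genes, at most 20% of UMIs from mitochondrial genes and at most 5% from hemoglobin genes. The members are chosen by their own RNA, so the levels of the 6 genes in them, and of genes that go with them, are given as a description.

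The study asked how a mild head injury changes the cells of the meninges. The Sham library held pooled dorsal meninges of 5 male C57BL/6 mice (C57BL/6J in the study's methods), aged 10 weeks per the sample source and 10 to 12 weeks per the age field, collected 1 week after a Sham procedure. The TBI library held those of 5 such mice, collected 1 week after a mild closed-skull injury. Tissue was digested with collagenase, live single cells, those that did not take up DAPI, were sorted, and each pool gave 1 10x library. Since each group is 1 library of pooled animals, the procedure and the library cannot be told apart, no test between the groups was possible, and the intervals below cover counting error only. The deposited Sham matrix has 2699 barcodes with 9527334 UMIs and the TBI matrix 4349 barcodes with 15011079 UMIs, and 20 barcode sequences occurred in both, 14 of them among filtered cells and 0 among cycling cells. The cycling cells held 428021 UMIs (Sham) and 508888 UMIs (TBI), so that a floor of 3 UMIs in their sum lies at 7.01 and 5.90 CPM, counts scaled to a total of 1000000.

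A dividing cell passes from G1 through DNA synthesis (S) and G2 to mitosis, and waves of transcription mark these steps. E2F factors drive the genes of DNA replication at the G1 to S boundary, and the B-MYB and FOXM1 complexes, with NF-Y, drive the mitotic genes later, many through promoter motifs called CHR (TTTGAA) and CCAAT. In adult meninges the stromal and vascular cells are largely quiescent, while the neighbouring skull marrow supplies developing B cells and myeloid cells to the dura.

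Each of the 6 genes that define the members has its own task in this sequence. Mki67 encodes Ki-67, which coats mitotic chromosomes. It lies on the minus strand at chr7:135689784-135716361 (GRCm38). Top2a (chr11:98992943-99024189, minus strand) encodes the topoisomerase that untangles sister chromatids, and Ccna2 (chr3:36564865-36572150, minus strand) encodes cyclin A2 of S and G2 phase. Birc5 (chr11:117849251-117855743, plus strand) encodes survivin of the chromosomal passenger complex. Cdk1 (chr10:69335146-69352938, minus strand) encodes the mitotic kinase, and Ube2c (chr2:164769898-164778822, plus strand) the ubiquitin-conjugating enzyme with which the anaphase-promoting complex marks cyclins for destruction.

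The promoters of 3 of these genes are shown because Mki67 and Top2a carry, in different numbers, the motifs by which mitotic genes are known to be switched on together, while Birc5 carries neither. Each line gives the 150 bases before the start site from RefSeq (GRCm38.p6), 5′ to 3′ on the gene's own strand. Capitals mark TTTGAA and CCAAT on either strand, so that a motif on the opposite strand reads TTCAAA or ATTGG. The windows are chr7:135716380-135716529 (minus strand) for Mki67, chr11:99024190-99024339 (minus strand) for Top2a and chr11:117849087-117849236 (plus strand) for Birc5.
Mki67: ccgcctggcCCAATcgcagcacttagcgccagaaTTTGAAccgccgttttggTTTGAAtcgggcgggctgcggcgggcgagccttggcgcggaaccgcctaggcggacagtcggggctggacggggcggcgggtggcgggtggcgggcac
Top2a: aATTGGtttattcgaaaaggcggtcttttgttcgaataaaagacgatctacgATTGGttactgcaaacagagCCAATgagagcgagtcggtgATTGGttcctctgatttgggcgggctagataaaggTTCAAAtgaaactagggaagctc
Birc5: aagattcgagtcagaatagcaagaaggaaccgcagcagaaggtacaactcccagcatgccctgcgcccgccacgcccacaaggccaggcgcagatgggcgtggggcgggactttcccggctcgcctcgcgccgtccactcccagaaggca

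The Mki67 window holds TTTGAA 2 times, 116 and 98 bases before the start site (-116 and -98), and CCAAT 1 time at -141. In Top2a, TTTGAA stands at -23 on the opposite strand, and CCAAT occurs 4 times, at -149, -98, -78 and -58. Neither run of letters occurs in the Birc5 window. Cdk1 has TTTGAA at -71 and -15 with CCAAT at -80 and -48, and Ube2c has TTTGAA at -29 with CCAAT at -88 and -57. Both motifs were thus present in 4 of the 5 defining genes with an entry, against 2.32% of all 27025 promoters of the same length, where TTTGAA occurred in 9.24% and CCAAT in 25.3%. Among 46 promoters of other late cell cycle genes, the list of G2 and mitotic genes used below, 37 (80.4%) held CCAAT, 13 (28.3%) TTTGAA and 12 (26.1%) both. Among 33 promoters of S phase and DNA replication genes, 21 (63.6%) held CCAAT, 4 (12.1%) TTTGAA and 2 both. The matches describe the letters in these windows and show no binding.

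In the cycling cells Mki67 was the gene found in most cells. It had a UMI in 35 of 43 Sham and 52 of 62 TBI cells, at 484 and 611 CPM of the summed UMIs. Top2a was found in 34 and 48 cells (474 and 705 CPM), Birc5 in 29 and 45 (308 and 470 CPM). Cdk1 was found in 20 and 34 cells (107 and 183 CPM) and Ube2c in 20 and 35 (206 and 371 CPM), with 39.8% of the Sham and 31.7% of the TBI UMIs of Ube2c in 1 cell. Ccna2 differed most between the libraries, with a UMI in 14 of 43 Sham cells and 42 of 62 TBI cells. Its level was 128 and 338 CPM, a log2 ratio of TBI over Sham of 1.39 (0.95 to 1.86, exact conditional 95% interval). Mki67 and Top2a occurred together in 70 of the 105 cells. Among the cells that are not cycling, none of the 6 genes had a UMI in more than 1.2% of either library.

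The label was checked with genes that the rule did not use, although they share the cells' RNA with it. Of each cell's UMIs, the list of 54 late genes took a median of 90.3 (Sham) and 145 (TBI) per 10000 in cycling cells against 11.6 and 10.8 in the others, and the 44 genes of S phase and replication took 48.4 and 57.6 against 6.52 and 5.75. Near the threshold, the 16 Sham and 15 TBI cells with exactly 2 of the 6 genes had medians of 44.5 and 58.4 per 10000 for the late list. The 78 and 129 cells with exactly 1 gene had 13.0 and 11.7, close to cells with none. The cycling cells also carried more RNA, with a median of 9743 (Sham) and 6926 (TBI) UMIs against 2724.5 and 2632 in other cells, so depth moves with membership, and its part in membership was not tested beyond the thinning given below.

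**Figure D1:**
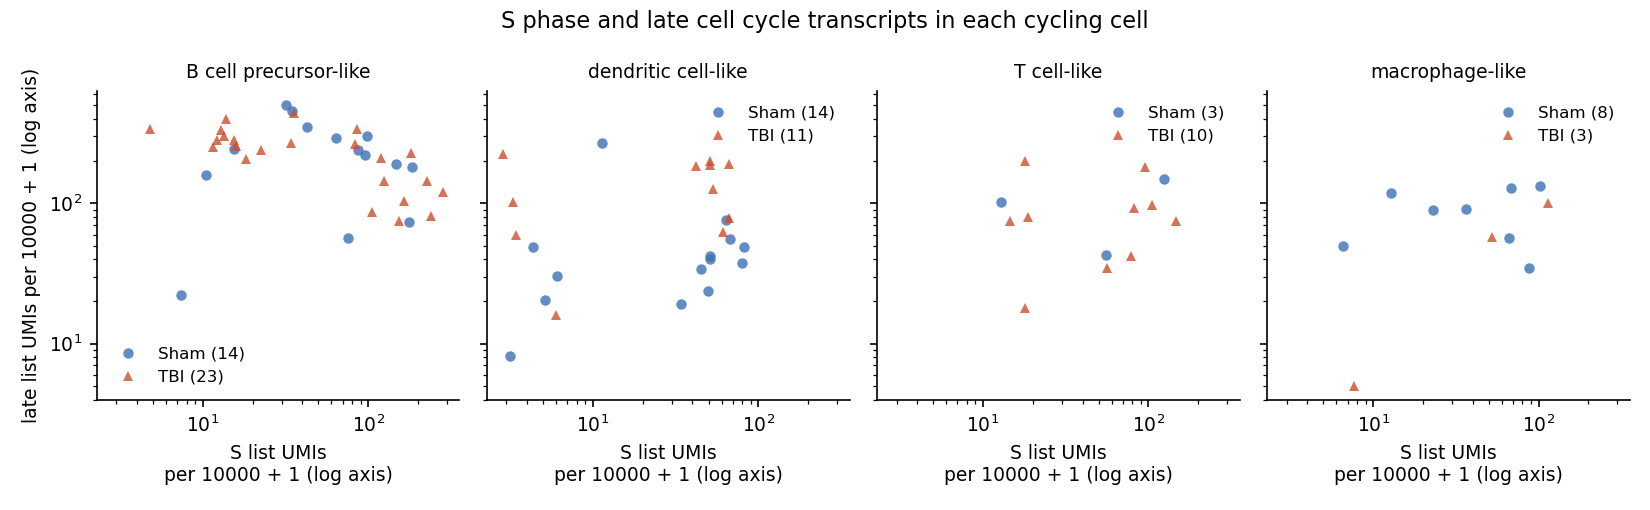
UMIs of the S phase list (x axis) and of the late list (y axis) in each cycling cell, per 10000 UMIs with 1 added, on log axes, in 4 panels by class, with circles for Sham and triangles for TBI cells. Most Sham dendritic-like cells lie low on the late axis (median 38.0) at S phase values like those of TBI cells (46.3 and 49.9), while among these 4 classes the B cell precursor-like cells reach the highest late values in both libraries (505 and 442).

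With the filters used, the share of cycling cells differed between the libraries by less than counting error. The share was 2.1% in Sham (95% exact binomial interval 1.53 to 2.82) and 1.64% in TBI (1.26 to 2.1), a difference of -0.46 percentage points (Newcombe interval -1.26 to 0.25). With at least 4 of the 6 genes it was 0.979% and 1.01%, and all 6 genes were found in 8 Sham and 18 TBI cells. When every cell was thinned to 1000 UMIs, 16 of 1655 Sham cells (0.967%) and 34 of 3234 TBI cells (1.05%) still met the rule, with 388 and 539 shallower cells left out. At 2000 UMIs the shares were 1.65% and 1.57%, with 771 and 1359 cells left out. The interval of the difference included 0 in each of these cases. Without the limit on hemoglobin it did not, with shares of 2.79% and 1.85% and a difference of -0.94 points (-1.78 to -0.18).

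Most cycling cells were immune cells. Cells were placed in classes by clustering with the cell cycle genes left out, and a class is called X-like from its markers. Of the 105 cells, 94 (89.5%) fell in immune classes, 40 of 1408 Sham cells (2.84%) and 54 of 1971 TBI cells (2.74%). Only 1 of 1420 cells of the named non-immune classes was cycling, a pericyte-like or smooth muscle-like TBI cell with 2 of the 6 genes that also had UMIs of 3 of 8 B cell markers. The other 10 cells were in clusters without a name. Of these, 1, a Sham cell with 5 of the 6 genes and 2643 UMIs, lay in a cluster led by Vwf, a gene of endothelial cells, and scored as endothelial by its own markers (2 of 7 detected, 5 UMIs). Another, a TBI cell with all 6 genes, lay in a cluster led by Sema3g and Gja5, had 4 of 7 pericyte or smooth muscle and 4 of 7 endothelial markers, and was a predicted doublet.

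Single lineage genes were read in the same cells. Cd79a, a signalling chain of the B cell receptor, had a UMI in 14 of 43 Sham and 25 of 62 TBI cycling cells. H2-Aa, an MHC class II chain of antigen-presenting cells, was found in 27 and 28 cells, Cd3e of the T cell receptor complex in 4 and 11, and C1qa, a complement component made by macrophages, in 8 and 9. Of the stromal and vascular lineage genes, Col1a1, the collagen of fibroblasts, had 3 and 4 UMIs in 2 and 4 cells. Cdh5, the cadherin of endothelial junctions, had 0 and 3 UMIs. Of the other cells, 7.65% and 27.0% had Col1a1 and 13.2% and 16.5% had Cdh5. By longer marker lists, at least 3 pericyte or smooth muscle markers were found in 2 of 62 TBI cycling cells (3.23%) against 2.48% of other TBI cells. For endothelial markers this was 2 of 62 (3.23%) against 15.8%, and for fibroblast markers 1 of 62 (1.61%) against 22.7%. In Sham it was 0 of 43 for each list. As a background from classes that should lack the gene, H2-Aa was found in 0 of the 13 T-like cycling cells and C1qa in 0 of the 37 B cell precursor-like ones, while 3 of the 10 T-like TBI cells had 1 UMI of C1qa each. Counting only genes with at least 2 UMIs, 27 of the 105 cells had Cd79a alone, 27 H2-Aa alone, 12 Cd3e, 9 Cd79a with H2-Aa, and 9 C1qa with H2-Aa. None of the 6 lineage genes reached 2 UMIs in 19 cells, 4 Sham and 15 TBI.

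**Figure D2:**
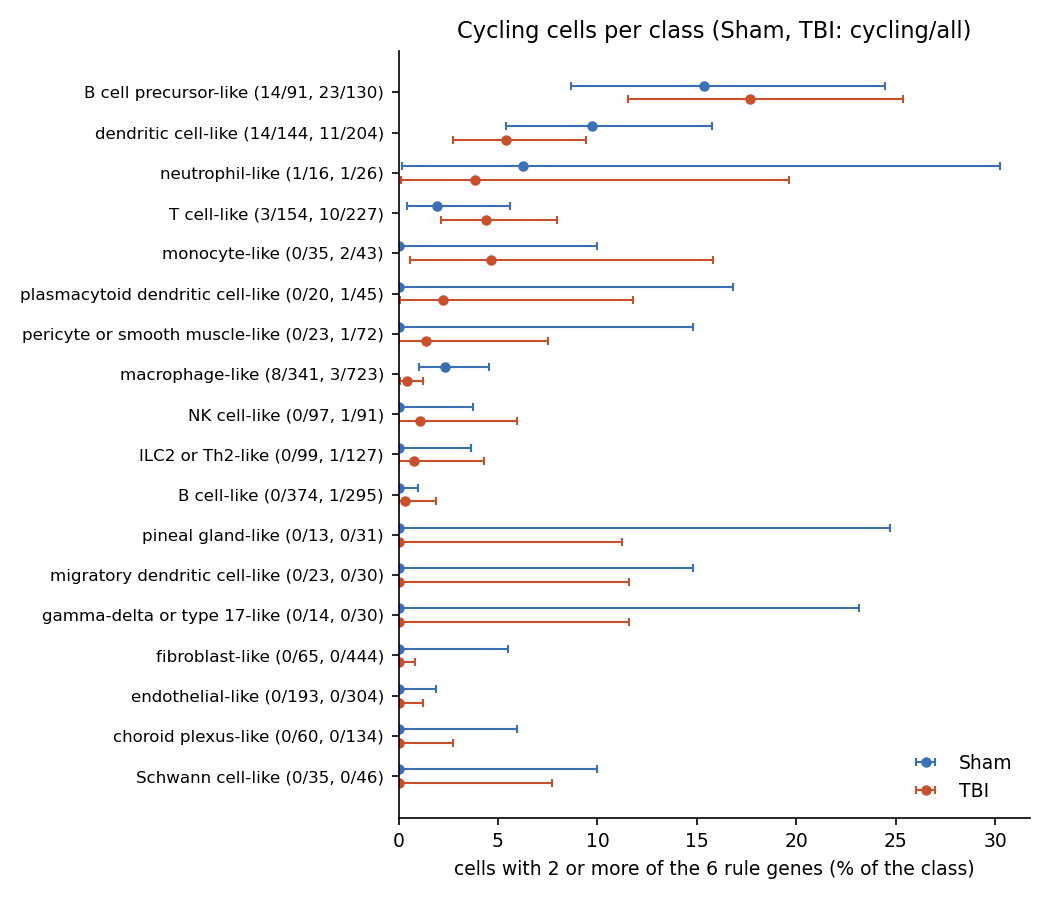
Percent of the cells of each class that are cycling (x axis) in the Sham and TBI libraries, with exact 95% binomial intervals that cover counting error only and the counts of cycling and all cells printed beside each point. B cell precursor-like cells stand highest in both libraries (15.4% and 17.7%), and no cell of the classes named endothelial-like or fibroblast-like is cycling, while the clusters without a name led by Vwf and by Sema3g hold 1 cycling Sham and 1 cycling TBI cell.

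With the cell cycle genes left out of the clustering, B cell precursors had the largest cycling share among classes with at least 3 cycling cells in each library. Of the B cell precursor-like cells, 14 of 91 in Sham (15.4%, 8.67 to 24.5) and 23 of 130 in TBI (17.7%, 11.6 to 25.4) were cycling, a difference of 2.31 points (-8.12 to 11.9). The mature B cell-like class held 0 of 374 and 1 of 295 cycling cells and gives the background of the rule in a resting lymphocyte. Its other cells had a median of 3085 and 2654.5 UMIs, against 2941 and 2564 in precursor-like cells that are not cycling. After thinning to 1000 UMIs the precursor shares were 12.2% and 17.1%, and to 2000 UMIs 14.7% and 17.8%. By the summed markers of each cell, 9 of the 14 Sham and 6 of the 23 TBI cycling precursor-like cells scored as B cells rather than precursors. Classed in that way, 5 of 30 Sham (16.7%) and 17 of 53 TBI (32.1%) precursors were cycling, a difference of 15.4 points (-4.74 to 31.7). Both lists hold genes that pre-B cells express. With the cell cycle genes kept in the clustering, the precursor-like clusters held only 4 of 87 Sham (4.6%) and 2 of 119 TBI (1.68%) cycling cells, below the 5.88% of dendritic-like cells in Sham, so the share of the class depends on leaving those genes out.

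Among the dendritic-like cells, 14 of 144 in Sham (9.72%, 5.42 to 15.8) and 11 of 204 in TBI (5.39%, 2.72 to 9.44) were cycling, a difference of -4.33 points (-10.7 to 1.22). Thinning to 1000 UMIs turned the order, to 0 of 138 and 5 of 194 cells, and so did 2000 UMIs, to 3 of 130 and 7 of 180, so that no order between the libraries can be read at matched depth. Unthinned, Sham was higher with an interval beyond 0 when cells were classed by their own markers (-5.16 points, -10.2 to -0.97), with cell cycle genes in the clustering (-5.36, -10.7 to -1.65) and with at least 1 defining gene (-9.56, -17.8 to -1.83). With at least 3 genes the difference was 0.25 points (-4.82 to 4.62). T-like cells cycled in 3 of 154 (1.95%) and 10 of 227 (4.41%) cases, a difference of 2.46 points (-1.68 to 6.20). With the mature B, ILC2, type 17 and NK classes added, 3 of 738 Sham (0.407%) and 13 of 770 TBI cells (1.69%) were cycling. That difference was 1.28 points (0.23 to 2.49), and this pooled set was not thinned. Of its 13 cycling TBI cells 10 were T-like, 2 of them predicted doublets. By its own markers 1 of the 3 cycling Sham T-like cells scored as a monocyte. At 1000 UMIs 1 of 120 (0.833%) and 2 of 204 (0.98%) T-like cells remained above the threshold. At 2000 UMIs this was 2 of 101 (1.98%) and 3 of 174 (1.72%).

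In macrophage-like cells the cycling share was lower in the TBI library with the rule and classes used, but not under every alternative. It was 8 of 341 cells in Sham (2.35%, 1.02 to 4.57) and 3 of 723 in TBI (0.415%, 0.0857 to 1.21), a difference of -1.93 points (-4.16 to -0.529). After thinning to 2000 UMIs it was 5 of 192 (2.60%) and 1 of 520 (0.192%), a difference of -2.41 points (-5.76 to -0.68), and after thinning to 1000 UMIs 2 of 259 and 1 of 635, a difference of -0.615 points (-2.62 to 0.305). With the cell cycle genes kept in the clustering it was 3 of 336 and 1 of 722, a difference of -0.754 points (-2.46 to 0.117). With at least 1 of the 6 genes the shares were 7.04% and 7.33%, a difference of 0.292 points (-3.34 to 3.4), while with at least 3 genes it was -1.33 points (-3.25 to -0.27) and with cells classed by their own markers -1.57 points (-3.78 to -0.18). Median depth of the macrophage-like cells that are not cycling was 2901 UMIs in Sham and 4419 in TBI. By cluster, the cells led by Fcgr4, Slamf9 and Cx3cr1 held 5 of 112 and 3 of 263, and those led by Ccl8 and Cd209g held 3 of 113 and 0 of 141. The cells led by Folr2, Fcrls and Pf4 held 0 of 116 and 0 of 319.

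The remaining classes held few or no cycling cells. The cluster named endothelial-like had 0 of 193 and 0 of 304, at a median of 1828 and 1938 UMIs per cell, and fibroblast-like cells 0 of 65 and 0 of 444. The cluster led by Vwf, which stayed without a name, had 1 of 55 and 0 of 144, that led by Sema3g and Gja5 0 of 48 and 1 of 92, and that led by Slc38a5, Slco1a4 and Cldn5 0 of 13 and 0 of 40. A limit of 3 cells of the total allows shares of up to 1.55% and 0.987% in the cluster named endothelial-like and 4.62% and 0.676% in fibroblast-like cells, and the exact intervals reach 1.89% and 1.21%, and 5.52% and 0.827%. Monocyte-like cells had 0 of 35 and 2 of 43, neutrophil-like 1 of 16 and 1 of 26, plasmacytoid dendritic-like 0 of 20 and 1 of 45, NK-like 0 of 97 and 1 of 91, and ILC2-like or Th2-like 0 of 99 and 1 of 127. These names are those of the clusters. By its own markers the NK-like cell scored as ILC2 or Th2 (2 of 8 markers, against 1 of 8 NK markers). The Sham neutrophil-like cell scored as a granulocyte precursor (3 of 7 markers, against 2 of 7 neutrophil markers). The TBI one scored as a neutrophil (4 of 7) but had 6 of 7 granulocyte precursor markers. No cycling cell was found among choroid plexus-like, Schwann-like, pineal-like, type 17-like or migratory dendritic-like cells. A shallow cluster without a name, with a median of 889.5 UMIs, held 2 of 67 and 6 of 135.

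The levels of the S and late lists were set side by side by class. Among the 4 classes with most cycling cells, B cell precursor-like cells had the highest median and the highest single value of the late list, from 21.4 over a median of 229 to 505 per 10000 in Sham and from 73.7 over 250 to 442 in TBI. Their S phase values ranged from 6.42 over 68.8 to 184 and from 3.79 over 34.4 to 282. The ranges of the libraries overlapped for both lists. The highest late value of all cycling cells, 658, was that of a TBI cell of 942 UMIs in the shallow cluster without a name. T-like cells ran from 42.0 over 101 to 148 (3 Sham cells) and from 17 over 77.0 to 199 (10 TBI cells) for the late list, and macrophage-like cells from 33.9 over 89.4 to 133 and from 4.01 over 56.3 to 99. In these classes, too, the ranges of the libraries overlapped.

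In dendritic-like cells the late medians of the libraries were farther apart than the S phase medians, although the ranges overlapped here too. Their S phase values ran from 2.14 over 46.3 to 81.2 per 10000 in Sham and from 1.88 over 49.9 to 65.6 in TBI. Their late values were lower in Sham, from 7.14 over 38.0 to 269, than in TBI, from 15.0 over 125 to 225. The Sham maximum came from a cell of 965 UMIs, and the other 13 Sham cells stayed at or below 75.5. At least 4 of the 6 defining genes were found in 3 of 14 Sham and 9 of 11 TBI dendritic-like cells, against 9 of 14 and 16 of 23 B cell precursor-like cells. Median depth was similar, 14757 UMIs in Sham and 14204 in TBI dendritic-like cycling cells.

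**Figure D3:**
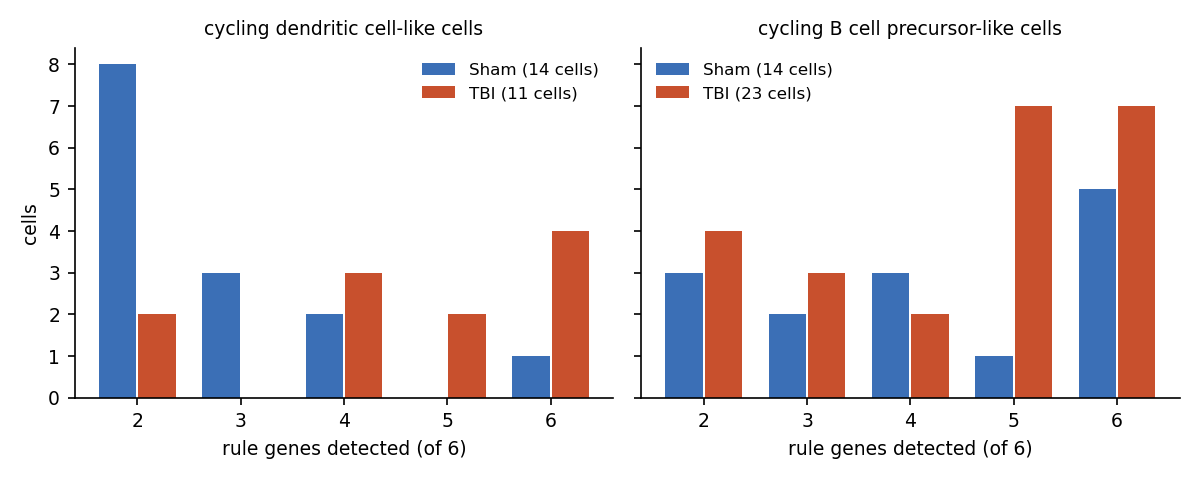
Number of cycling cells (y axis) by how many of the 6 defining genes were detected in the cell (x axis, 2 to 6), for dendritic-like and B cell precursor-like cells of each library. Of the 14 Sham dendritic-like cells 8 have exactly 2 genes, while 9 of the 11 TBI cells have at least 4.

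Within each class, cycling cells were set beside the other cells of that class. The rule used this contrast and cycling cells were deeper, so the values are a description. Large pre-B cells are known to divide with the recombinase turned down, before they rearrange the light chain. In the B cell precursor-like cells Rag1 was lower in cycling cells of both libraries and Rag2 in Sham. Rag1, a subunit of the V(D)J recombinase, stood at 64.5 CPM in cycling against 412 CPM in other cells in Sham and at 104 against 340 CPM in TBI. Rag2, the other subunit, stood at 27.7 against 163 CPM in Sham and 208 against 220 CPM (30 and 62 UMIs) in TBI, where it was found in 16 of 23 cycling (69.6%) and 39 of 107 other cells (36.4%). Cd24a, a surface protein of early B cells, was higher in cycling cells (1871 against 1028 CPM in Sham, 1988 against 1573 CPM in TBI).

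The surrogate light chain, with which a pre-B cell tests its heavy chain, was present in both states. Vpreb1 stood at 258 against 734 CPM in Sham and 445 against 765 CPM in TBI, and Igll1 at 442 against 575 and 542 against 970 CPM. These levels rest on few cells, with 64.3% of the cycling and 50% of the other Sham UMIs of Vpreb1 in 1 cell each, and 62.5% and 50.4% of those of Igll1. The share of cells with a UMI ran the other way, for Vpreb1 21.4% of cycling against 7.79% of other cells in Sham and 26.1% against 14% in TBI, and for Igll1 35.7% against 6.49% and 26.1% against 14%, with cycling cells deeper. Vpreb3, an assembly partner of the heavy chain and the most abundant precursor marker, stood at 2802 against 4905 and 2168 against 4944 CPM. Cd79a and Ighm, genes of the B cell receptor, were lower in cycling cells of both libraries. Cd79a stood at 2065 against 4837 and 1675 against 4728 CPM, and Ighm, the mu heavy chain, at 995 against 2432 and 1188 against 2387 CPM. Il7r, the receptor of the growth factor of pro-B cells, had a UMI in 14 of 14 Sham and 17 of 23 TBI cycling cells, at 369 and 313 CPM against 494 and 404 CPM in the others. Ms4a1 (CD20), a marker of mature B cells, was found in 0 of the 37 cycling cells and in 15.6% and 14% of the others.

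**Figure D4:**
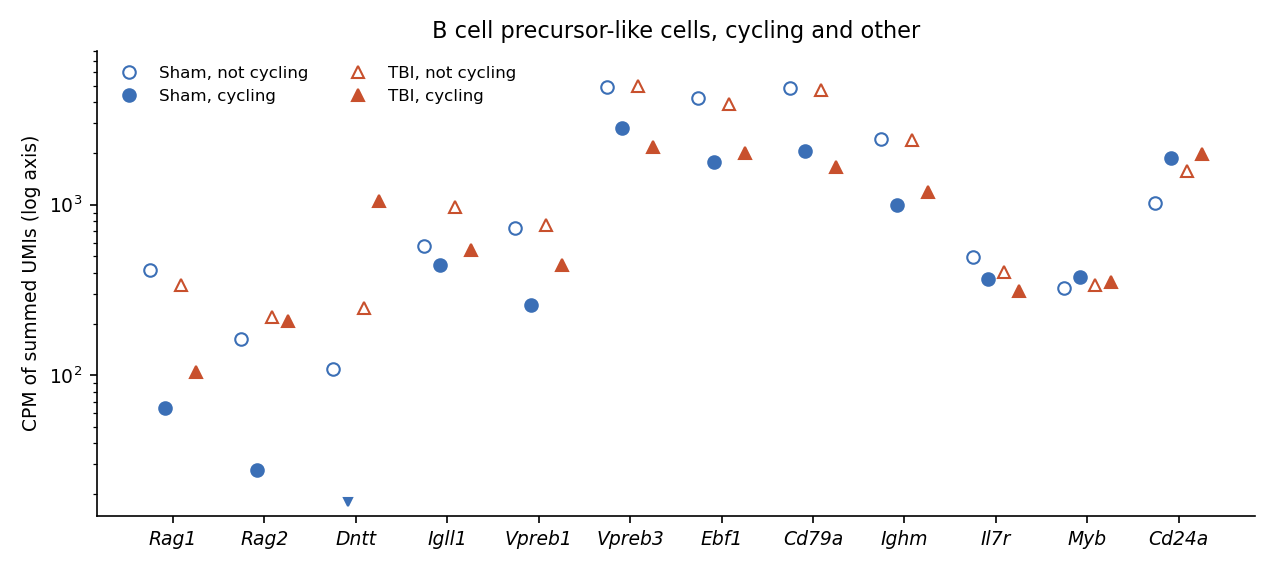
Level (CPM of summed UMIs, log axis) of B cell development genes in cycling (filled) and other (open) B cell precursor-like cells of the Sham and TBI libraries. A small downward triangle marks Dntt, with no UMI in Sham cycling cells. Rag1, Vpreb3, Ebf1, Cd79a and Ighm are lower in cycling cells of both libraries, and Cd24a is higher.

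Over the whole list of V(D)J recombination and pre-B cell genes, the median log2 ratio of cycling over other B cell precursor-like cells was -0.64 in Sham (2 of 14 genes above 0) and -0.61 in TBI (4 of 15). The late list, by contrast, had a median of 5.24 in Sham (42 of 42 genes above 0) and 5.17 in TBI (52 of 52), the S phase list 3.74 (37 of 37) and 3.63 (38 of 38), and the histone list 4.43 (18 of 19) and 2.43 (17 of 19). Of the growth factor and cytokine receptors, 0 of 8 and 2 of 8 genes were above 0. The median over all genes with at least 10 UMIs was -0.05 and -0.06.

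Conventional dendritic cells fall into a cross-presenting subset (cDC1) and a subset that primes helper T cells (cDC2). In the cycling dendritic-like cells Cd209a stood near the level of the rest of the class, while Xcr1, Clec9a and Irf8 had lower summed levels in both libraries. By cells with a UMI, Xcr1 was found in 7.14% (Sham) and 0% (TBI) of cycling cells against 8.46% and 16.1% of the others. For Clec9a this was 7.14% and 9.09% against 23.1% and 29.0%, and for Irf8 21.4% and 9.09% against 24.6% and 28.0%. Each exact interval of a cycling share included the share of the others, so the cell counts show no difference. Cd209a, a lectin of cDC2, was found in 11 of 14 Sham and 9 of 11 TBI cycling cells, at 1609 and 1662 CPM against 1804 and 1900 CPM in the others, with 37.2% of the TBI UMIs in 1 cell. Mgl2, another lectin of that subset, stood at 1073 against 870 CPM in Sham and 587 against 1206 CPM in TBI, and Irf4, its factor, at 30.6 against 58.7 and 45.7 against 50.8 CPM. Xcr1, the chemokine receptor of cDC1, had 5.11 CPM (1 UMI) and 0 CPM against 43.6 and 89.0 CPM, where the floor of 3 UMIs is 15.3 and 22.9 CPM. Clec9a, another cDC1 gene, had 5.11 and 7.62 CPM against 70.6 and 117 CPM, and Irf8, the factor of that subset, 35.8 and 7.62 CPM against 311 and 488 CPM. Itgae, an integrin of cDC1, had 5 UMIs in 1 Sham cell (25.5 against 23.0 CPM) and none in TBI. H2-Aa stood at 10757 and 10808 CPM against 15617 and 16666 CPM, and C1qa was found in 0 of 14 and 1 of 11 cells.

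In the cycling macrophage-like cells, Mrc1 and Pf4, genes of resident border macrophages, had lower levels than in the rest of the class. The cluster led by Folr2, Fcrls and Pf4 held no cycling cell, so this contrast also lies between clusters. By their own markers, 2 of the 8 Sham cells scored as dendritic cells. Pf4 had a UMI in 7 of 8 Sham cycling cells (87.5%) against 76.9% of the others, and in 1 of 3 TBI cells against 77.4%. Mrc1, the mannose receptor, stood at 258 (Sham) and 0 (TBI) CPM against 1108 and 1173 CPM in the other macrophage-like cells, and Pf4, a chemokine, at 287 and 42.9 against 1836 and 2021 CPM. Ms4a7, another macrophage gene, stood at 86.0 against 822 CPM in Sham (in 1 of 8 cells) and closer in TBI, at 816 against 917 CPM (in 3 of 3 cells). C1qa stood at 4972 and 2877 against 6454 and 6575 CPM, and Apoe, a lipid carrier, at 7450 and 3092 against 18586 and 18090 CPM. The TBI values rest on 3 cells. All 13 T-like cycling cells had Cd3e. Cd4, the helper coreceptor, was found in 2 of 3 Sham and 6 of 10 TBI cells, and Cd8a, the cytotoxic coreceptor, in 1 of 3 and 4 of 10. Foxp3, the factor of regulatory T cells, was found in 1 of 3 and 0 of 10, and Trdc, a gamma-delta receptor chain, in none. Gzmk, a granzyme of memory T cells, was found in 7 of the 10 TBI cells and in 0 of the 3 Sham cells, with 35 of its 63 UMIs in 1 cell. Other T-like cells had Gzmk at 124 and 133 CPM, and B cell precursor-like cells had no UMI of it.

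Gene levels over all cycling cells were then compared between the libraries. These ratios hold the different mix of classes, with 14 dendritic-like of 43 cells in Sham and 11 of 62 in TBI, so ratios within a class are given for the lists and for some genes, and the other ratios of single genes include that mix. Of 5888 genes with at least 20 UMIs, 309 had a log2 ratio of TBI over Sham of at least 1 (5.25%) and 219 of at most -1 (3.72%), with a median of 0.08 over all genes tested. In other cells 9.05% and 1.97% of 14649 genes passed these limits.

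The late list was higher in TBI cycling cells. Its summed level was 9247 CPM in Sham and 14156 CPM in TBI, and its median log2 ratio was 0.69, with 53 of 54 genes above 0. With the mean over cells in place of summed UMIs the median was 0.23. Over all genes tested, 5.25% were past the fold and higher by summed UMIs. Past the fold were 9 of 54 genes, all with higher summed levels in TBI: Ndc80 of the kinetochore (1.43), the spindle proteins Ckap2l (1.54), Dlgap5 (1.20) and Gas2l3 (1.18), the mitotic kinesins Kif20a (1.73) and Kif2c (1.17), the anaphase activator Cdc20 (1.16), the checkpoint kinase Ttk (1 UMI against 24) and the Cdk1 phosphatase Cdc25c (1.41). With the mean over cells Gas2l3 was at -0.03 and Kif2c at 0.07, and the interval of Gas2l3 (-0.16 to 2.88) included 0. The most abundant members moved less, with Hmgb2, a chromatin protein of dividing cells, at 2273 and 3152 CPM (0.47, 0.36 to 0.59) and Tubb5, a tubulin, at 1668 and 2720 CPM (0.70, 0.57 to 0.84). Within precursor-like and dendritic-like cells the ratios were 0.09 and 1.32 for Hmgb2 and 0.13 and 1.70 for Tubb5. They were 0.21 and 3.06 for Ndc80 and 1.14 and 2.50 for Ckap2l. Of the other genes past the fold, Ttk was at 2.76, Kif20a at 1.56, Cdc20 at 1.37 and Gas2l3 at 1.31 within precursor-like cells. Kif2c was at 0.63, Dlgap5 at 0.62 and Cdc25c at 0.38 there. Tubb4b, another tubulin, had a ratio of 0.76 and Anp32e, a histone chaperone, 0.57.

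The difference was larger within dendritic-like than within B cell precursor-like cells. Within them the late list was at 3534 CPM in Sham and 12386 CPM in TBI. Its median log2 ratio was 2.15, with 34 of 34 genes above 0 and 22 of 25 past the fold, where 5.95% of 2253 genes were higher past the fold and 6.57% lower. Within B cell precursor-like cells the median was 0.19 (20259 and 23143 CPM), and 5 of 46 genes passed the fold, all higher, where 4.91% of 2220 genes did and 3.6% were lower. Without the dendritic-like cells the median over all other cycling cells was 0.06. Dendritic-like cells held 195789 of the 428021 Sham and 131202 of the 508888 TBI UMIs of cycling cells, so the sum over all cells also moves with the mix, and the parts of mix and level were not separated. The defining genes other than Cdk1 followed the same pattern. Ccna2 had a log2 ratio of 3.70 in dendritic-like cells (3 UMIs in 1 of 14 Sham cells, 30 in 8 of 11 TBI cells) and 0.67 in precursor-like cells. Birc5 had 3.08 and 0.09, Ube2c 2.72 and 0.56, Top2a 2.43 and -0.53, and Mki67 2.16 and -0.26. Cdk1 went the other way, at 0.71 in dendritic-like and 0.94 in precursor-like cells. These ratios of defining genes restate how many of them each cell had.

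**Figure D5:**
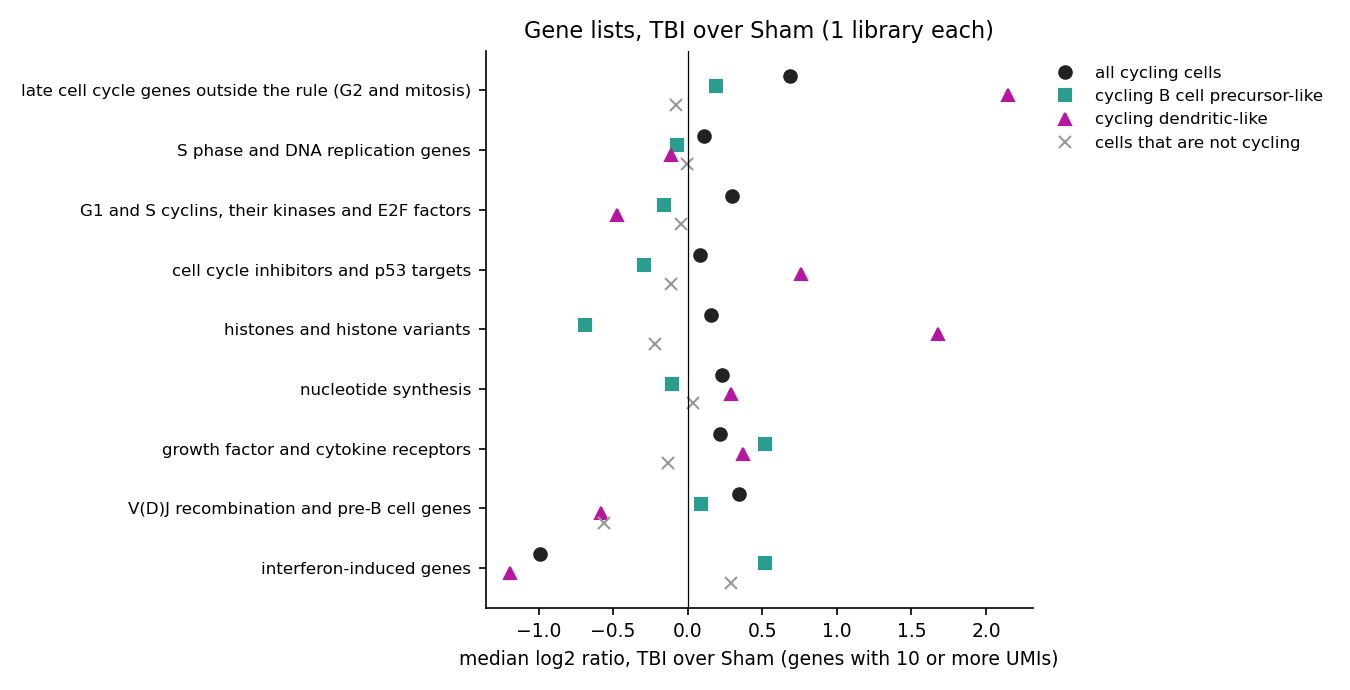
Median log2 ratio of TBI over Sham (x axis) for the genes of 9 lists (y axis) in all cycling cells, in the cycling B cell precursor-like and dendritic-like cells and in cells that are not cycling. The late list stands at 2.15 in dendritic-like cells and at 0.19 in B cell precursor-like cells, and the interferon-induced list at -0.99 in all cycling cells and 0.29 in other cells.

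The S phase list had medians near 0. It had a median of 0.11 over all cycling cells (26 of 44 genes above 0), -0.07 in B cell precursor-like and -0.11 in dendritic-like cells. Within dendritic-like cells 5 of 27 of its genes were past the fold and higher and 2 lower, where 5.95% and 6.57% of all genes were. Pcna, the sliding clamp of DNA polymerase, stood at 325 and 322 CPM and Mcm6, a subunit of the replicative helicase, at 348 and 314 CPM. Slbp, which binds histone mRNA, stood at 252 and 403 CPM (0.67). Rrm2, the regulated subunit of ribonucleotide reductase, was the only member past the fold over all cycling cells, at 213 and 446 CPM (1.06, 0.71 to 1.44), with 0.34 within precursor-like and 2.60 within dendritic-like cells. Nucleotide synthesis genes had a median of 0.23, with 0 of 16 past the fold, and Dut, which removes dUTP, stood at 311 and 466 CPM (0.58). Paics and Impdh2, enzymes of purine synthesis, had ratios of 0.33 and 0.23, and Nme1, a nucleoside diphosphate kinase, -0.05.

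The histone list, which also holds Stmn1 and Tuba1b, had a median of 0.16 over all cycling cells, -0.69 in B cell precursor-like cells and 1.68 in dendritic-like cells, so its direction depends on the class. Its most abundant members, the variants H2afz (2897 and 3272 CPM), H3f3a (2409 and 2645 CPM) and H3f3b (1642 and 1798 CPM), had ratios of 0.18, 0.13 and 0.13, and Tuba1b 0.29 (1413 and 1731 CPM). All 4 were above 0 in dendritic-like and below 0 in precursor-like cells. Hist1h1a, a linker histone made in S phase, had 227 and 63 CPM (-1.83), with 71.1% of its Sham UMIs in 1 B cell precursor-like cell.

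Among G1 and S cyclins and their partners the median was 0.30 over all cycling cells, -0.16 in precursor-like and -0.48 in dendritic-like cells. The interval of the first median was -0.56 to 1.15, and the summed level of the list went the other way, from 1949 CPM in Sham to 1629 CPM in TBI (-0.26, -0.40 to -0.12). Ccnd1, cyclin D1, was lower in TBI, at 484 against 128 CPM (-1.91, -2.35 to -1.51). It was found in dendritic-like and macrophage-like cells and in 0 of the 37 precursor-like cells. Within dendritic-like cells it was at 894 CPM in 12 of 14 Sham cells and 358 CPM in 8 of 11 TBI cells (-1.31). Ccnd2 stood at 133 and 86.5 CPM (-0.62), with 34 UMIs in 6 of 14 Sham and 0 UMIs in 11 TBI dendritic-like cells. Ccnd3, the cyclin D of lymphocytes, and its kinase Cdk4 were the most abundant members, at 640 and 548 CPM (-0.22) and 290 and 332 CPM (0.20). Past the fold and higher were 4 of 14 genes, against 5.25% of all genes tested. These were Ccne1 (1.34), Cdk6 (1.15), Skp2 (1.66) and Foxm1 (1.15), each with at most 35 UMIs in a library. The intervals of Ccne1 (-0.09 to 3.23) and Foxm1 (-0.01 to 2.59) included 0. Foxm1 was at -0.94 within precursor-like cells, at 5.10 within dendritic-like cells and at -0.04 with the mean over cells. It had only 8 Sham and 22 TBI UMIs over all cycling cells, so the size of 5.10 depends on the 0.5 added.

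Inhibitors and p53 targets had a median of 0.08 over all cycling cells, -0.29 in precursor-like and 0.76 in dendritic-like cells. Rbl2, a pocket protein of quiescence, was past the fold at 32.7 and 72.7 CPM (1.12), as was Gadd45b, a stress gene, at 14 and 49.1 CPM (1.72), with 83.3% of its Sham UMIs in 1 cell. The abundant members Btg2 (-0.18), Bax (0.23), Cdkn2d (0.09) and Btg1 (-0.41) had intervals that included 0. Growth factor and cytokine receptors had a median of 0.21, 0.52 in precursor-like and 0.37 in dendritic-like cells. Il2rb, a chain of the IL-2 and IL-15 receptors, was higher at 35.0 and 88.4 CPM, with 13 of its 15 Sham UMIs in 1 T-like cell. Csf1r, the receptor on which macrophages depend, was lower over all cycling cells, at 187 and 78.6 CPM (-1.24), but stood at 123 and 114 CPM within dendritic-like (-0.08) and at 788 and 859 CPM within macrophage-like cycling cells. Fgfr1, a fibroblast growth factor receptor, was at 42.1 and 7.86 CPM (-2.29, 18 against 4 UMIs). Il2rg, the common gamma chain, had a ratio of 0.58, Crlf2 0.24 and Csf2ra -0.39.

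V(D)J recombination and pre-B cell genes had a median of 0.34, 0.09 in B cell precursor-like cells and -0.58 in dendritic-like cells, where only 2 genes could be measured. Past the fold were Rag2 and Dntt, 2 of 13, both higher, where 5.25% of all genes tested were. Rag2 had 3 UMIs in 3 Sham cells and 32 UMIs in 17 TBI cells, a log2 ratio of 2.97 (1.49 to 5.52), and within precursor-like cells it was found in 3 of 14 and 16 of 23. Other precursor-like cells had Rag2 at 163 and 220 CPM. Dntt, the polymerase that adds bases at V(D)J joints, had 0 UMIs in Sham and 151 UMIs in 4 TBI cells, at least 42.3-fold higher against the floor of 3 UMIs over the Sham cycling cells, with 57.6% of its UMIs in 1 cell. Vpreb3 (-0.14), Cd24a (0.26), Ebf1 (0.36) and Igll1 (0.46) differed less.

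Interferon-induced genes were lower in TBI cycling cells. Their summed level was 4117 CPM in Sham and 2114 CPM in TBI, and the median log2 ratio was -0.99, with 21 of 23 genes below 0. Past the fold were 8 of 18, all lower, where 3.72% of all 5888 genes were lower past it. In cells that are not cycling the median was 0.29, with 22 of 25 above 0. Isg15, a ubiquitin-like protein, stood at 159 and 27.5 CPM (-2.49, -3.47 to -1.69) and Ifitm3, which blocks viral entry, at 1117 and 460 CPM (-1.28, -1.51 to -1.05). Irf7, the factor that amplifies interferon, had a ratio of -1.71 (34 against 12 UMIs), with 18 of its Sham UMIs in 1 macrophage-like cell. Oasl2 had a ratio of -2.57, Rtp4 -1.83, Ifit3 -2.10 and Xaf1 -1.01 (-2.26 to 0.11), each with at most 27 UMIs in a library, and 33.3%, 36%, 43.5% and 21.1% of their Sham UMIs were in 1 cell. Cxcl10, a chemokine, had 28 Sham UMIs, 27 of them in 1 macrophage-like cell, against 2 in TBI. The abundant members Ifi27l2a (-0.93), Bst2 (-0.53) and Ifi203 (-0.43) were lower by less than the fold, with Ifi203 at 0.34 by the mean over cells.

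By class, the interferon list took a median of 34.9 per 10000 UMIs in Sham and 21.9 in TBI dendritic-like cycling cells, with ranges of 12.1 to 117 and 3.16 to 59.6 that overlapped. Its median log2 ratio there was -1.19, with 17 of 17 genes below 0. Past the fold were 4 of 9, all lower, where 6.57% of 2253 genes were lower past it. In dendritic-like cells that are not cycling the median was 0.28. T-like cycling cells had 31.5 and 20.1 per 10000 and macrophage-like ones 58.3 and 48.1. B cell precursor-like cells had little of it, 5.64 and 9.21 per 10000, and 4 measurable genes with a median of 0.52. Per UMI, macrophage-like cells had the most interferon RNA, and they gave 8 of 43 Sham and 3 of 62 TBI cycling cells. Dendritic-like cells held the most interferon UMIs, 926 in Sham and 322 in TBI, against 573 and 101 in macrophage-like cells. The part of this mix of classes in the ratio over all cycling cells was not tested.

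Several of the largest single-gene differences over all cycling cells came from 1 cell. Prss34 and Mcpt8, proteases of basophils, had 1285 and 304 UMIs in TBI and 0 in Sham, at least 360-fold and 85.2-fold higher, and all of these UMIs were in 1 TBI cell of 14187 UMIs. S100a8 and S100a9, the calprotectin subunits of neutrophils, had 1569 and 1474 TBI UMIs, 1567 and 1474 of them in 1 neutrophil-like cell that also had 6 of 7 granulocyte precursor markers. Gzmk, described above, was at least 17.7-fold higher. Lower in TBI were Retnla, a secreted protein of alternatively activated macrophages, at 80 and 0 UMIs, at least 31.7-fold, with 98.75% of the UMIs in 1 Sham macrophage-like cell, Apoe at 1227 and 171 CPM (-2.84) and Axl, a receptor for dying cells, at 110 and 17.7 CPM (-2.57). Apoe was found in 9 Sham and 14 TBI cells and Axl in 12 and 6.

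Hemoglobin RNA also differed. Hba-a2 (-3.30), Hba-a1 (-2.80) and Hbb-bs (-2.55) had lower summed levels in TBI cycling cells, with 73.4%, 75.2% and 74.3% of their Sham UMIs in 1 T-like cell of 26231 UMIs. With the mean over cells the ratios were -0.96, 0.32 and -0.03, so that the direction of Hba-a1 turned. Within precursor-like cycling cells, which leave out that T-like cell, the ratios were -2.12, -1.75 and -1.26. Within dendritic-like ones they were -2.88, -2.88 and -3.08. In cells that are not cycling the ratios of the 3 genes were -2.77, -2.63 and -2.34. Of 8 markers of erythroid precursors, cycling cells had 2 in Sham (7 UMIs, 16.4 CPM in all, Car2 most abundant) and 8 in TBI (111 UMIs, 218 CPM, Car2 most abundant). At least 3 of these markers were found in 0 of 43 Sham and 3 of 62 TBI cycling cells, against 0 of 2000 and 3 of 3711 other cells. The 3 cells lay in the shallow cluster without a name and had 6 to 7 of the 8 markers. Without that cluster, an alternative chosen after seeing the data, the share of all cells that cycle differed by -0.54 points (-1.34 to 0.17). The part of the 3 cells in the other results above was not tested.

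Lineage genes were set beside their ratios within dendritic-like cells. C1qa stood at 815 and 143 CPM over all cycling cells (-2.50, -2.89 to -2.14), with 45.8% of the Sham and 64.4% of the TBI UMIs in 1 cell each. H2-Aa stood at 7163 and 3376 CPM (-1.09), but within dendritic-like cells its ratio was 0.01. Cd209a (-0.77) and Mgl2 (-2.03), dendritic markers, had 0.05 and -0.86 within that class. Cd79a had a ratio of 0.05 (523 and 542 CPM) and Cd3e 0.31 (168 and 208 CPM), with 51.4% of the Sham UMIs of Cd3e in 1 cell. Predicted doublets numbered 0 of the 43 Sham and 5 of the 62 TBI cycling cells and were kept.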

How the data were processed

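The deposited matrices hold whole-number counts of UMIs, which the authors made with Cell Ranger from 10x 3′ v2 libraries on mm10. The submitters' processing notes name version 2.1.1 and the matrix headers 3.1.0. No normalization and none of the limits below had been applied, and the shallowest barcodes have 502 and 501 UMIs. Groups came from the sample labels. The cycling cells, marker lists and gene lists were chosen with earlier results of these data known.

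Cells were filtered by the limits of the study (150 to 5000 genes, at most 20% mitochondrial and 5% hemoglobin UMIs), scaled to 10000, log-transformed and clustered jointly (Scanpy 1.11.5, leidenalg 0.10.2, 2000 variable genes without 160 cell cycle, histone and nucleotide genes, 20 components, 20 neighbours, resolution 0.8). Of 28 clusters, 22 took the name of the class with most markers (3 or more) among their 50 leading genes. Doublets were predicted by simulation (33 Sham, 114 TBI cells) and left in. Per library, UMIs were summed over cycling cells, and log2 ratios were taken with 0.5 added. List medians use genes with at least 10 UMIs, and the fold limit (log2 of 1) genes with at least 20. Intervals are exact binomial, Newcombe or exact conditional 95% intervals (SciPy 1.17.1).

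Named were the defining and lineage genes, per list the 4 most abundant genes and those past the fold, the 6 largest ratios each way with at least 50 UMIs, and the 3 most abundant markers of classes with at least 15 cycling cells. Subset genes of B cell precursor-like, dendritic-like, macrophage-like and T-like cells, and single cells, were chosen after their values were seen. Gene positions are GENCODE vM21 (GRCm38), and promoters RefSeq. All 6 defining genes were looked up and 5 had a promoter entry. The count ratios, the thinning and the interval of the share difference were tested on simulated data, where the ratio counts had no spread between cells. Clustering, class names, doublet calls and list medians were not tested in this way. Alternatives changed the threshold, depth, doublets, filters, classes, gene definition and the way cells are combined.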

Additional observations from a re-analysis of the deposited data

Results flagged for a closer look

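Over all classes together, interferon-induced genes had opposite directions in cycling and in other cells. Their median log2 ratio of TBI over Sham was -0.99 in cycling cells, with 21 of 23 genes below 0, and 0.29 in cells that are not cycling, with 22 of 25 above 0. The ratios of the summed levels were -0.96 and 0.11. In B cell precursor-like cells the median was 0.52 in cycling (4 of 4 genes above 0) and -0.09 in other cells, and in dendritic-like cells -1.19 and 0.28, where the summed ratio of the other cells was 0.0039. T-like cells had lower summed levels in TBI in both states, at 3080 (Sham) and 1929 (TBI) CPM in cycling and 3648 and 3086 CPM in other cells. In macrophage-like cells these levels were 8210 and 4337 CPM in cycling and 5475 and 6056 CPM in other cells. Macrophage-like cells made up 8 of 43 Sham and 3 of 62 TBI cycling cells, and 333 of 2000 and 720 of 3711 other cells. The difference was not tested, since each group is 1 library.

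A signal of the 6 defining genes was also present in barcodes that the filters removed. Among barcodes left out for hemoglobin UMIs over 5% alone, 22 of 289 in Sham (7.61%, 4.83 to 11.3) and 11 of 174 in TBI (6.32%, 3.2 to 11) had at least 2 of the 6 genes. By their own markers 17 of the 22 and 9 of the 11 scored as erythroid precursors.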

How the results depend on the processing

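The difference in the share of all cells that cycle stayed within its counting interval under 11 of 11 alternatives, although without the hemoglobin limit (-0.94) its own interval left out 0. Class shares kept within it in 32 of 36 cases, list medians moved by less than their interval in 41 of 54 and named genes in 413 of 485. Differences in percentage points moved for B cell precursors when cells were classed by their own markers (15.4) and for dendritic cells at 1000 (2.58) and 2000 (1.58) UMIs, and turned for macrophages with at least 1 gene (0.292). Genes past the fold, 5.25% up and 3.72% down in the main setting, numbered 671 and 419 of 5888 with the mean over cells (11.4% and 7.12%). At 10 UMIs they were 633 and 451 of 8106 (7.81% and 5.56%), and at 50 UMIs 84 and 64 of 2856 (2.94% and 2.24%). In B cell precursor-like cells they were 109 and 80 of 2220 (4.91% and 3.6%). The late list median was 0.23 with the mean over cells, 0.19 in B cell precursor-like cells, 0.42 with at least 3 genes, 0.061 without dendritic-like cells and 0.74 without the richest cell of each library, and 1.58 in dendritic-like cells with the mean over cells. The S list gave 0.27 with the mean over cells and -0.068 in precursor-like cells, histones -0.69 in precursor-like cells and -0.33 without dendritic-like cells, nucleotide synthesis 0.48, -0.10 and, with at least 3 genes, 0.47, and interferon-induced genes 0.52 in precursor-like cells (4 genes). Turned in precursor-like cells were Mki67 (-0.26), Top2a (-0.53), H2-Aa (0.44), H2afz (-0.035), H3f3a (-0.12), Tuba1b (-0.19) and Ifi27l2a (0.48), and with the mean over cells Mki67 (-0.17), Tuba1b (-0.13) and Hba-a1 (0.32). The causes were not tested. Chosen after seeing the data were, for the list medians, the alternatives with at least 3 genes, without dendritic-like cells and without the richest cell, for class shares that at 2000 UMIs, for the share of all cells that without the shallow cluster, and those for the late and interferon lists within dendritic-like cells.

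With 1 library per group there was no replicate to leave out. No paired analysis was possible because each group has 1 library. Shares of the 4 classes with most cycling cells rest on 3 to 23 cycling cells per library, those of other classes on 0 to 2, and ratios of genes with few UMIs have wide intervals.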

Other observations

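The hemoglobin-rich barcodes with at least 2 defining genes carried RNA of developing red cells. Car2, a carbonic anhydrase, had a UMI in 20 of 22 Sham and 9 of 11 TBI barcodes. Klf1, the erythroid transcription factor, was found in 2 and 5, and Cd3e in 0 and 0. Median hemoglobin was 67.1% of UMIs in the 17 Sham and 18.6% in the 9 TBI barcodes that scored as erythroid precursors. Of the barcodes with over 5000 genes, 2 of 4 in Sham and 1 of 4 in TBI also had at least 2 defining genes, and of those with over 20% mitochondrial UMIs 0 of 44 and 1 of 133.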
